A study of Mus musculus with 2 samples.

Results

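The 9 genes described here carry the signal of prolactin and growth hormone from the cell surface to the nucleus and shut it off again. They are the receptors Prlr and Ghr, the kinase Jak2, the transcription factors Stat5a and Stat5b, and the inhibitors Cish, Socs1, Socs2 and Socs3. The rows were taken by gene symbol from the 31053 genes of the count matrices, and each of the 9 symbols matched 1 row. The rule used no measured value, though earlier results of these data were known when the genes were chosen.

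Dissociated pancreatic islets of virgin and multiparous mice were profiled by droplet-based single-cell RNA sequencing, which reads the 3′ end of polyadenylated RNA and marks each captured molecule with a unique molecular identifier (UMI). Both groups were wild-type C57BL/6J females that entered the study at 9 weeks of age. The multipara group had gone through 3 consecutive pregnancies and was sampled 3 weeks after the last delivery. According to the study, pups were taken away to limit metabolic effects of lactation. The virgin group was made up of age-matched littermates that were not mated. The islets were rested in serum-containing medium and then dispersed with trypsin. There was 1 library per group, and the labels do not give the number of mice behind it. At least 2 per group is stated in a legend of the study, without saying what is counted or how it maps to the library. The spread between animals is therefore unknown for every value. Differences in parity, mouse, dissociation and library preparation cannot be told apart. All intervals below are 95% intervals that cover counting error only, and no p-values are given.

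There were 5463 virgin barcodes with 94853806 UMIs in all, of which 4330 were kept as cells, and 5075 multipara barcodes with 82503776 UMIs, of which 3330 were kept. The libraries had 7 barcodes in common. Cells were gated on hormone or marker UMIs, and the classes are named with "-like" because the names rest on expression alone. Beta-like cells, with at least 10% of UMIs from the insulin genes, numbered 1730 (virgin) and 1551 (multipara), with medians of 29848 and 32327 UMIs. All 9 beta cell markers were higher in this gate than in any other in both libraries. Alpha-like (1058 and 665 cells), delta-like (357 and 308), endothelial-like (257 and 209), pericyte-like (59 and 63), macrophage-like (83 and 101), T cell-like (123 and 40) and B cell-like cells (186 and 41) were led by their own markers, the B cell-like gate by immunoglobulin genes. A gate on the hormone gene Ppy (69 and 79 cells) is called Ppy-high here because only Ppy and Pyy of its 5 markers peaked in it. Fibroblast-like cells (46) were numerous enough in the virgin library only. Levels are given in CPM, the UMIs of a gene as a share of all UMIs of the class, in parts per 1e6, and ratios are log2 of multipara over virgin.

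Prolactin and growth hormone each bind a receptor of the cytokine family, which has no enzyme activity of its own and holds the kinase JAK2 at its inner face. Binding lets JAK2 phosphorylate the receptor and the transcription factors STAT5A and STAT5B, which pair, enter the nucleus and switch on target genes. Cish and Socs2 are among those targets, and their products, like SOCS1 and SOCS3, bind the receptor or the kinase and damp the signal. In rodents, prolactin and the placental lactogens are known to drive the growth of beta cells during pregnancy through this pathway.

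STAT5 pairs bind a palindrome written TTCNNNGAA, which reads the same on both strands. RefSeq (GRCm38.p6) windows from 250 bases before to 50 bases after an annotated gene start were available for 8 of the 9 genes, all but Socs2, in 13 windows. The letters occurred in 3 of the 13 windows, 1 each of Prlr, Cish and Socs3, against 2726 of all 32851 windows (8.30%). The following stretches are printed because they hold these matches, which stand in capitals. They are the 250 bases before the second of 3 Prlr starts (chr15:10223656-10223905, plus strand, within an intron of longer Prlr transcripts), 30 bases across the Cish start (chr9:107296654-107296683, plus strand, within the first exon of a Cish transcript in GENCODE M21) and the 250 bases before the Socs3 start (chr11:117969367-117969616, minus strand).
Prlr: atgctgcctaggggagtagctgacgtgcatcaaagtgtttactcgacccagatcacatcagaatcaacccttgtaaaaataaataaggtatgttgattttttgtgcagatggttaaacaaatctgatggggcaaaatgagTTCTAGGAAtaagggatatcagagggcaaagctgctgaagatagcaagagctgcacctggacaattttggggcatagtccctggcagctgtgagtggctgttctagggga
Cish: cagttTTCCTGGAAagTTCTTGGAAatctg
Socs3: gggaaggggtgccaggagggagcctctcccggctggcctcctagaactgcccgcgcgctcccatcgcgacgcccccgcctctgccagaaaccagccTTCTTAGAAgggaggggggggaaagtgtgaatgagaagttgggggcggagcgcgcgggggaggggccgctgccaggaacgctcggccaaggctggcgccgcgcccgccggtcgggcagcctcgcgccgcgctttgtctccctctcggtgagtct
The Prlr match began 110 bases before that start and the Socs3 match 154 bases before its start. The Cish window held 2 matches, which began at bases 1 and 12 counted from the gene start. Letters in a window are a description and show no bound factor.

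Prlr, the prolactin receptor gene (chr15:10177238-10349180, plus strand), was the member most restricted to beta-like cells. Its level there was 426 CPM (421 to 432) from 21175 UMIs in virgin cells and 553 CPM (547 to 560) from 25438 UMIs in multipara cells. The multipara level was 1.30 times the virgin level, a log2 ratio of 0.38 (0.35 to 0.40), which was below the limit of 0.5 set for calling a ratio. The alternatives gave 0.36 to 0.47. Beta-like cells held 93.3% of the Prlr UMIs of all kept virgin cells and 96.0% of those of kept multipara cells, while they held 59.7% and 66.5% of all UMIs. Because 3′ counting joins the 7 annotated coding transcripts of Prlr, the long and short receptor forms cannot be told apart.

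Outside beta-like cells, Prlr lay between 0 and 32.4 CPM in the virgin library and between 13.2 and 47.4 CPM in the multipara library. Beta-like cells exceeded alpha-like cells 75.1-fold in the virgin library (log2 6.23, 5.94 to 6.54) and 37.6-fold in the multipara library (log2 5.23, 5.01 to 5.46). In the order of the 10 virgin classes, beta-like cells stood apart and each of the other 8 pairs of neighbours had overlapping intervals. The same was true of the 7 remaining pairs of neighbours in the multipara library.

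Insulin transcripts were found in every class, and in droplet data free RNA from broken cells can give such counts. If the share of beta cell Ins2 found in a class also applied to Prlr, alpha-like cells would show 4.03 CPM of Prlr in the virgin and 9.02 CPM in the multipara library. The measured levels were 5.68 CPM (4.60 to 6.94) from 96 UMIs and 14.7 CPM (12.6 to 17.1) from 170 UMIs, above those Ins2-scaled values. The scaled value depends on the marker used. In alpha-like cells Ins1 gave a smaller share of its beta-like level than Ins2, and the other beta cell markers a larger one. G6pc2 was 455 CPM in virgin beta-like and 11.2 CPM in virgin alpha-like cells. Its multipara levels were 417 and 13.5 CPM. The log2 ratio of Prlr in alpha-like cells was 1.38 (1.01 to 1.75), where the Ins2-scaled levels gave 1.16, and clusters in place of gates gave 0.85. In endothelial-like cells Prlr rested on 9 and 30 UMIs, with a log2 ratio of 1.73 (0.62 to 2.99) beside 1.37 from Ins2 scaling. In delta-like cells the level was 14.7 CPM (11.1 to 19.2) in the virgin and 22.6 CPM (17.6 to 28.6) in the multipara library, where Ins2 scaling gave 5.86 and 13.6 CPM. Their log2 ratio of 0.62 became 0.069 when cells under 10000 UMIs were left out, 0.26 after thinning to 10000 UMIs, 1.33 after thinning to 2000 UMIs and 0.86 with clusters in place of gates. Macrophage-like cells held 0 Prlr UMIs in the virgin library, where the floor of 3 counts equals 5.56 CPM, and 14 in the multipara library. Ins2 scaling gave 7.20 and 21.7 CPM for them, and the measured multipara level was 19.9 CPM (10.9 to 33.4). In all remaining gated classes the measured level lay above the Ins2-scaled one, though some intervals included it. With clusters in place of gates the macrophage-like levels were 50.6 and 59.7 CPM, the T cell-like ones 21.7 and 50.9 CPM and the B cell-like ones 8.06 and 72.9 CPM. Whether Prlr outside beta-like cells was made there was not tested.

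**Figure D1:**
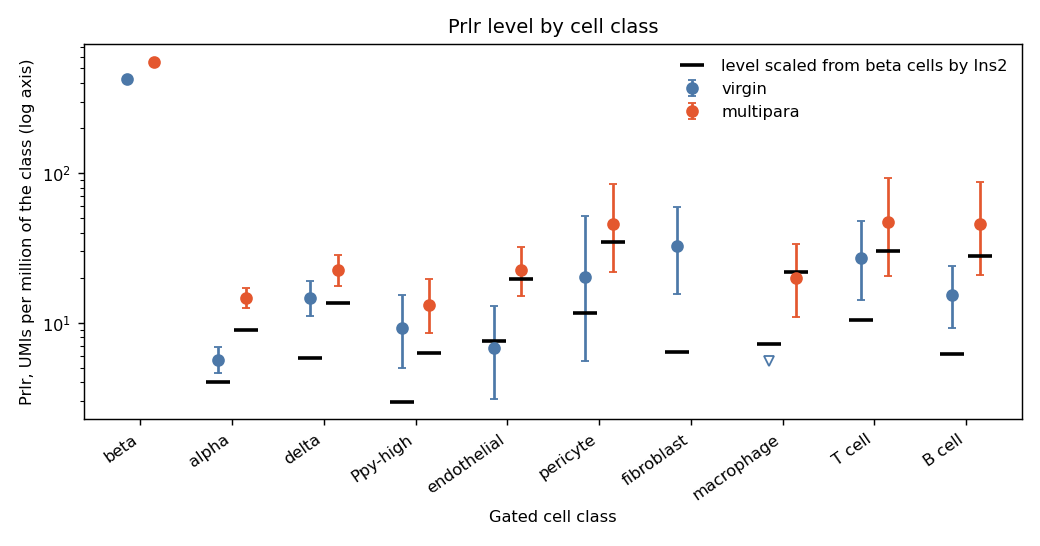
Prlr level in each gated class on a log axis, in CPM, with virgin in blue and multipara in red. Points carry exact Poisson 95% intervals, black dashes give the level scaled from beta-like cells by Ins2, and the open triangle marks 0 UMIs at the floor of 3 counts. Beta-like cells lie at 426 and 553 CPM, and every other gated class at 47.4 CPM or less.

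After thinning to 10000 UMIs, the higher Prlr of multipara beta-like cells was seen at the low end, the middle and the high end. This depth was added after the data were seen. After each beta-like cell was thinned to 10000 UMIs, which left 1520 virgin and 1302 multipara cells, the mean was 4.08 Prlr UMIs per virgin cell and 5.41 per multipara cell. The 10th percentile, median and 90th percentile were 1, 4 and 8 UMIs in virgin cells and 2, 5 and 10 UMIs in multipara cells. The variance was 2.10 and 2.0 times the mean. Cells with at least 1 Prlr UMI made up 93.2% (91.8 to 94.4) of thinned virgin and 97.4% (96.4 to 98.2) of thinned multipara beta-like cells. At this depth, 4.06% and 11.4% of alpha-like cells, which also held insulin transcripts, had a Prlr UMI. Where that Prlr RNA was made was not tested. Median depths before thinning were 29848 and 32327 UMIs in beta-like and 16340.5 and 17497 UMIs in alpha-like cells. Without thinning the shares of beta-like cells were 96.1% and 94.6%, in the opposite order, and the multipara gate left out more shallow cells in thinning (249 against 210). After thinning to 2000 UMIs the shares were 55.9% and 67.1%. At that depth the 10th percentile was 0 and the median 1 Prlr UMI in both libraries. The 90th percentile was 2 in virgin and 3 in multipara cells. Unthinned cells had a 10th percentile of 2 in both libraries, medians of 11 and 15 and 90th percentiles of 25 and 32.

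**Figure D2:**
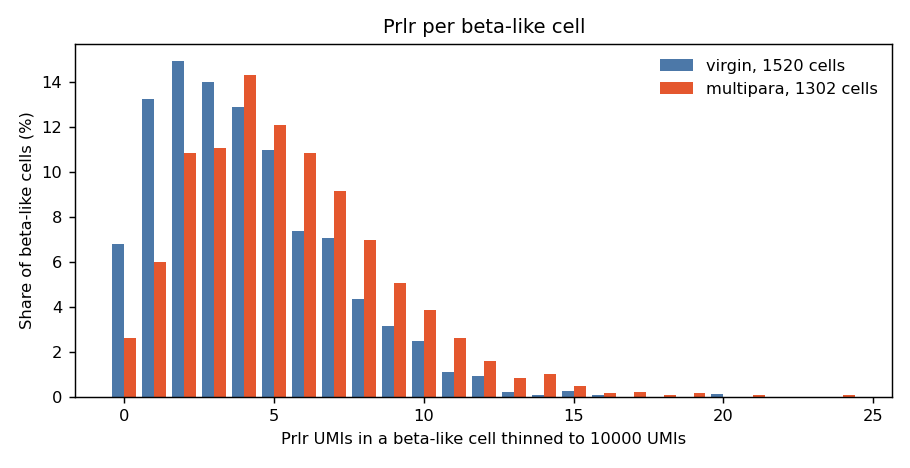
Share of beta-like cells (%) by the number of Prlr UMIs after thinning each cell to 10000 UMIs, with virgin in blue (1520 cells) and multipara in red (1302 cells). The multipara distribution is shifted to the right of the virgin one, with medians of 5 and 4 UMIs.

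Ghr, the growth hormone receptor gene (chr15:3317760-3583492, minus strand), was shared by more classes. Its highest level was in delta-like cells, at 96.7 CPM (87.0 to 107) in the virgin and 81.8 CPM (72.0 to 92.6) in the multipara library. Beta-like cells followed, at 79.8 CPM (77.4 to 82.3) and 65.1 CPM (62.8 to 67.4). In both libraries the delta-like interval lay above the beta-like one. Alpha-like cells were at 33.5 and 30.2 CPM and endothelial-like cells at 30.9 and 42.8 CPM. Immune classes were at or near 0, with 2 Ghr UMIs in the virgin macrophage-, T cell- and B cell-like cells together and 2 in the multipara ones. In beta-like cells the log2 ratio was -0.29 (-0.36 to -0.23), the opposite sign to Prlr, and in delta-like cells it was -0.24 (-0.48 to -0.0044).

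Jak2, the kinase gene of both receptors (chr19:29251828-29313080, plus strand), was sparse in endocrine cells. It measured 7.17 CPM (6.44 to 7.95) in the virgin beta-like gate and 5.72 CPM (5.05 to 6.46) in the multipara one, from 356 and 263 UMIs. The log2 ratio was -0.33 (-0.56 to -0.09). T cell-like cells had the highest levels, 86.4 and 94.8 CPM, from 38 and 16 UMIs. Delta-like cells, at 17.4 and 13.4 CPM, lay above beta-like cells in both libraries, with log2 ratios of beta- over delta-like cells of -1.28 (-1.67 to -0.88) in virgin cells and -1.23 (-1.71 to -0.72) in multipara cells. In macrophage-like cells Jak2 was 68.6 CPM in the virgin and 21.3 CPM in the multipara library, from 37 and 15 UMIs. The log2 ratio was -1.68 (-2.66 to -0.78), in a class where 28.6% of all genes were past the limit on the lower side. After thinning to 2000 UMIs, 10.6% (4.37 to 20.6) of virgin and 5.26% (1.73 to 11.9) of multipara macrophage-like cells had a Jak2 UMI.

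Stat5a and Stat5b encode the closely related transcription factors and lie next to each other on chromosome 11 (chr11:100859351-100885169, plus strand, and chr11:100780731-100850724, minus strand). Stat5a also overlaps Stat3 on the other strand. In beta-like cells Stat5a was 3.83 CPM (3.3 to 4.41) and 3.70 CPM (3.16 to 4.30), with a log2 ratio of -0.05 (-0.36 to 0.26). Stat5b was 12.8 CPM (11.9 to 13.9) and 11.1 CPM (10.2 to 12.1), with a log2 ratio of -0.21 (-0.38 to -0.04). The Stat5a level stood out in T cell-like cells, 81.9 and 101 CPM, against 13.7 CPM or less in every other class of either library. Stat5b was more even, between 4.23 and 47.4 CPM over all classes, and each pair of neighbours in its order had overlapping intervals in both libraries.

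Cish, whose product CIS binds the activated receptor (chr9:107296026-107302784, plus strand), was the only member past the limit on the higher side in beta-like cells, where 5.06% of all genes were. It measured 10.1 CPM (9.22 to 11.0) from 501 UMIs in the virgin and 16.0 CPM (14.9 to 17.2) from 736 UMIs in the multipara library. The multipara level was 1.59 times the virgin level, a log2 ratio of 0.67 (0.50 to 0.83). In cells thinned to 10000 UMIs, 9.14% (7.74 to 10.7) of virgin and 14.3% (12.4 to 16.3) of multipara beta-like cells had a Cish UMI, and 22.8% and 33.4% did without thinning. Among thinned alpha-like cells the shares were 6.37% (4.87 to 8.15) and 4.19% (2.73 to 6.12). The virgin interval overlapped that of beta-like cells and the multipara interval lay below it.

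In alpha- and delta-like cells the Cish ratio was negative, though its sign changed with depth. Alpha-like cells had 7.16 CPM (5.94 to 8.55) in the virgin and 4.07 CPM (2.99 to 5.42) in the multipara library, a log2 ratio of -0.81 (-1.33 to -0.32). Delta-like cells had 16.9 CPM (13 to 21.6) and 10.1 CPM (6.89 to 14.4), a log2 ratio of -0.73 (-1.40 to -0.09). That last value became 0.069 when cells under 10000 UMIs were left out, where the alpha-like value was -0.81. Thinning cells to 10000 UMIs gave 0.26 in delta-like and -0.59 in alpha-like cells, and thinning to 2000 UMIs gave 0.048 in alpha-like cells. Ins2 scaling would put at most 0.393 CPM of beta cell Cish into alpha- or delta-like cells. Endothelial-like cells held 53.6 and 57.1 CPM, and their interval of the ratio, -0.39 to 0.58, included 0.

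Socs2, an inhibitor known for its action on growth hormone receptors (chr10:95385362-95417180, minus strand), was 37.7 CPM (36 to 39.5) in the virgin beta-like gate and 43.6 CPM (41.7 to 45.5) in the multipara one. The log2 ratio was 0.21 (0.12 to 0.30). In delta-like cells it was 28.9 CPM (23.7 to 34.9) in the virgin and 13.1 CPM (9.35 to 17.8) in the multipara library, a log2 ratio of -1.14 (-1.71 to -0.61), and -0.81 without cells under 10000 UMIs. Beta-like cells thus exceeded delta-like cells 1.30-fold in the virgin and 3.33-fold in the multipara library. Alpha-like cells were low, at 8.28 and 7.11 CPM, and endothelial-like cells highest, at 88.3 and 75.1 CPM.

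Socs1 and Socs3 encode inhibitors that can block JAK kinases directly. Socs1 (chr16:10782240-10785536, minus strand) was at the low end in beta-like cells, 1.19 CPM (0.904 to 1.53) from 59 UMIs in the virgin and 0.653 CPM (0.440 to 0.932) from 30 UMIs in the multipara library. Its log2 ratio was -0.86 (-1.55 to -0.21), past the limit on the lower side, where 11.5% of all genes were. Endothelial-like cells were at 72.4 CPM (58.7 to 88.4) and 119 CPM (102 to 139), a log2 ratio of 0.72 (0.35 to 1.10) from 96 and 159 UMIs.

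Socs3 (chr11:117966079-117970047, minus strand) was far higher in vessel, stromal and myeloid classes than in endocrine ones. Endothelial-, pericyte- and macrophage-like cells lay between 580 and 886 CPM in both libraries, and virgin fibroblast-like cells at 837 CPM. Beta-like cells had 60.1 CPM (58.0 to 62.3) and 52.3 CPM (50.3 to 54.5), a log2 ratio of -0.20 (-0.28 to -0.12), and alpha-like cells had 72.9 and 61.8 CPM, a log2 ratio of -0.24 (-0.37 to -0.10). In endothelial-like cells the level was 665 CPM (622 to 711) in virgin cells and 886 CPM (836 to 938) in multipara cells. That gave a log2 ratio of 0.41 (0.29 to 0.54). The share of endothelial-like cells with a Socs3 UMI after thinning to 2000 UMIs was 65.9% (59.4 to 72.1) and 66.0% (58.9 to 72.6). Socs3 responds quickly to handling of cells. Of 20 genes known to rise during dissociation, 3 were past the limit on the higher side and none on the lower side in beta-like cells, with a median log2 ratio of 0.22, and in endothelial-like cells none was higher and 1 lower, with a median of 0.05. The shares over all genes were 5.06% higher and 11.5% lower in beta-like and 8.57% and 14.1% in endothelial-like cells. Among the dissociation genes Fos was 1429 and 1346 CPM, Jun 1060 and 1368 CPM, Jund 763 and 702 CPM, Zfp36 66.2 and 101 CPM and Klf2 37.6 and 28.2 CPM in beta-like cells. Their part in the Socs3 ratios was not tested.

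**Figure D3:**
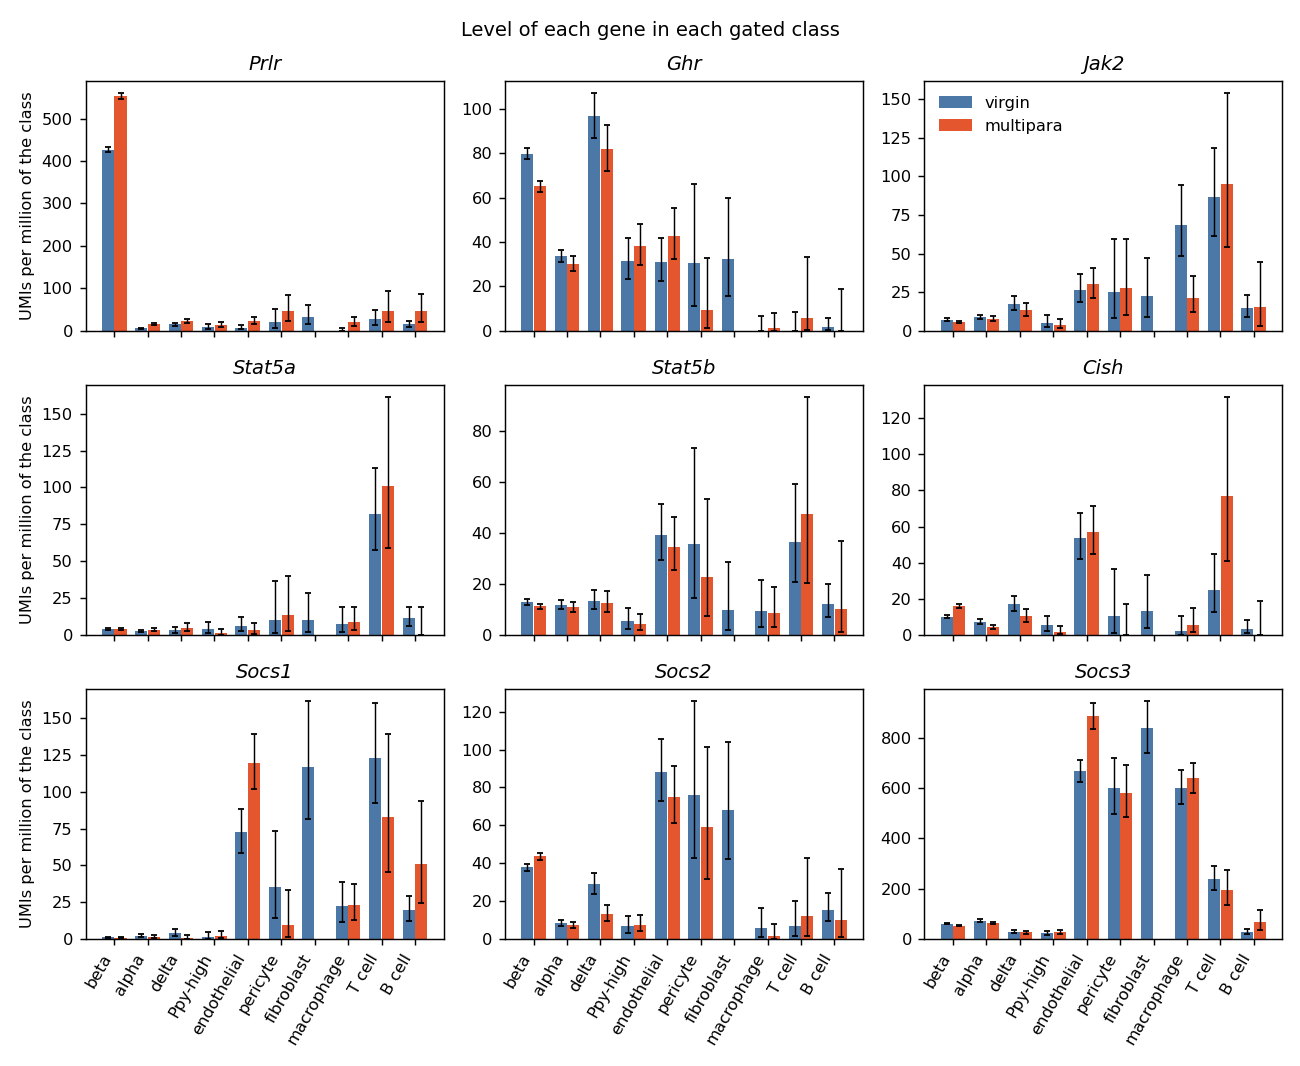
Level of each of the 9 genes in every gated class, in CPM on linear axes from 0, with virgin in blue and multipara in red and exact Poisson 95% intervals. Fibroblast-like cells are shown for the virgin library only. Prlr stands in beta-like cells, Ghr in delta- and beta-like cells, Stat5a in T cell-like cells and Socs3 in vessel, stromal and macrophage-like cells.

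Over the whole set, 1 of the 9 genes was past the limit on the higher side in beta-like cells (Cish) and 1 on the lower side (Socs1). Of all 13837 genes that had 10 or more UMIs over the pair of libraries, 16.6% were past the limit, 5.06% on the higher and 11.5% on the lower side. The 9 genes had a median log2 ratio of -0.20 and all genes one of -0.09. Prlr, Cish and Socs2 were higher in the multipara library, and Ghr, Jak2, Stat5b, Socs1 and Socs3 were lower. The intervals left out 0 for each of these 8 genes. The share of all genes with such an interval was not counted, so this number cannot be set against a background. Relative to the all-gene median, Prlr was at 0.47, Cish at 0.76, Socs2 at 0.30, Ghr at -0.20, Socs1 at -0.77 and Socs3 at -0.11, with intervals that still left out 0. Those of Jak2 (-0.23, -0.47 to 0.0026) and Stat5b (-0.11, -0.29 to 0.06) then included 0.

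In alpha-like cells, where 15% of all genes were past the limit, Prlr was on the higher side (background 5.08%) and Cish and Socs1, the latter with 38 and 17 UMIs, on the lower side (background 9.88%). In delta-like cells, with 17.6% of all genes past the limit, Prlr and Stat5a were on the higher side (background 6.81%) and Cish, Socs1 and Socs2 on the lower side (background 10.8%), with Stat5a resting on 11 and 14 UMIs and Socs1 on 15 and 2. Of the 20 dissociation genes, 7 were past the limit on the higher side in delta-like cells, with a median of 0.41, and their part in these ratios was not tested. In endothelial-like cells, with 22.7% of all genes past the limit, Prlr and Socs1 were on the higher side (background 8.57%). Prlr rested there on 9 and 30 UMIs, with level intervals that included the Ins2-scaled levels. Stat5a, with 8 and 4 UMIs, was on the lower side (background 14.1%). No difference of a ratio between classes was tested.

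**Figure D4:**
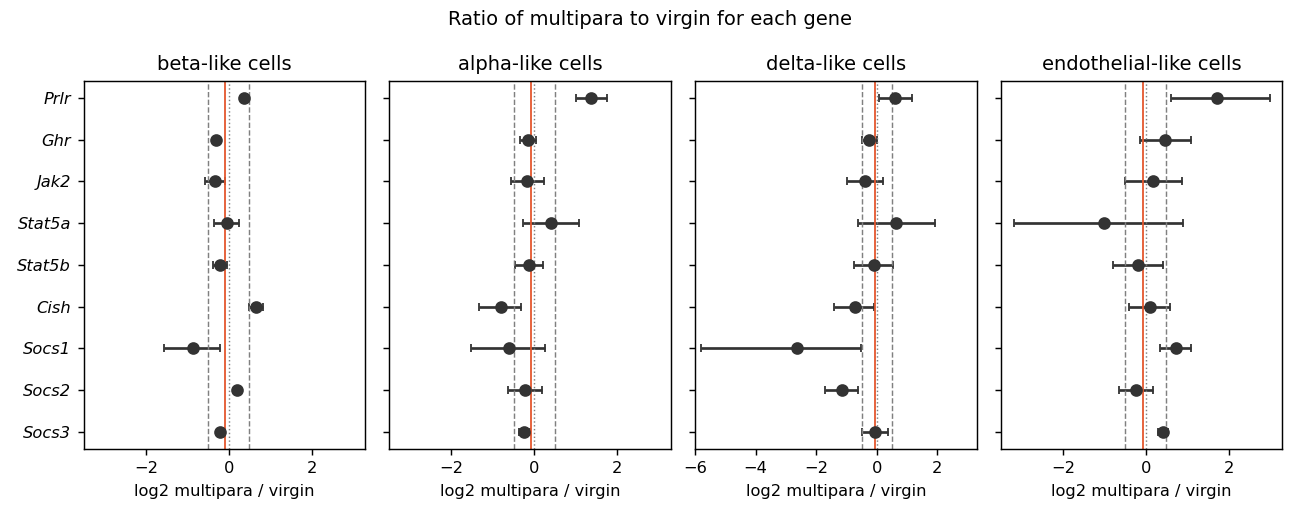
Log2 ratio of multipara over virgin for each gene in 4 classes, with exact 95% intervals for counting error. The red line is the median of all genes in the class, the dotted line is 0 and the dashed lines are the limits of 0.5, and the axis of the delta-like cells reaches further to the left. Cish lies at 0.67 in beta-like and at -0.81 in alpha-like cells.

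Thinned beta-like cells were split at the median of Prlr, into those above it (580 virgin and 562 multipara cells) and the rest (940 and 740). Cish was found in 10.9% of virgin cells above the median and 8.09% of the rest, and in 16.0% and 13% of multipara cells. Socs2 was found in 33.3% and 28.1% of virgin and in 35.4% and 35.3% of multipara cells. For these and for Ghr, Jak2, Stat5a, Stat5b and Socs1 the intervals of both sides overlapped in each library, as they did for Socs3 in virgin cells (39.0% and 35.3%). The exception was Socs3, found in 35.9% (32.0 to 40.1) of multipara cells above the median and in 28.0% (24.8 to 31.4) of the rest. In sparse counts these shares are a description only.

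The study links Lrrc55 to pregnancy and reported higher Rerg in multipara islets after an insulin receptor antagonist. A group of 158 multipara beta-like cells held a UMI of Lrrc55 or Rerg. Their Prlr level was 620 CPM (601 to 640), against 543 CPM (536 to 551) in the other 1393 cells, and their Cish level was 19.7 CPM (16.4 to 23.6) against 15.4 CPM (14.2 to 16.7), with intervals that overlapped. Socs3 was 72.2 CPM (65.6 to 79.3) against 49.3 CPM (47.1 to 51.5), on either side of 60.2 CPM (58.1 to 62.4) in the virgin cells without such a UMI. For Prlr and Cish both groups of multipara cells lay above the levels of those virgin cells, 427 CPM of Prlr and 10.1 CPM of Cish. The 158 cells were also deeper, with a median of 39946.5 UMIs against 31489.

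No UMI of the hormones was found in beta-like cells. Prl, Gh and Prl3b1 and the other 3 placental lactogen genes listed had 0 UMIs in the beta-like cells of both libraries. In virgin B cell-like cells Gh had 0.809 CPM, below the 2.43 CPM that the floor of 3 counts equals in that class. Other cytokine receptors that use JAK2 or STAT5 were sparse. Of 15 genes, 6 had at least 10 UMIs and none of these was past the limit, with a median log2 ratio of -0.09. Csf2ra, a receptor chain for a myeloid growth factor, was highest of these at 30.4 and 29.0 CPM. Lifr, the leukaemia inhibitory factor receptor gene, had the lowest ratio, -0.33 (-0.46 to -0.20), from 21.7 CPM in the virgin and 17.3 CPM in the multipara library. Il6st, the signalling chain of the interleukin 6 family, had the highest, 0.19 (0.00060 to 0.38), from 9.10 and 10.4 CPM.

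Of 8 other JAK and STAT genes, 7 were measured and none was past the limit, with a median of 0.01. Jak1 was 60.7 CPM in the virgin and 65.2 CPM in the multipara library, and Stat3 53.7 and 58.1 CPM. Stat6 had the lowest ratio of this list, -0.43 (-0.76 to -0.10), from 195 and 134 UMIs.

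All 14 other inhibitors were measured and none was past the limit, with a median of -0.13. The phosphatase genes Ptpn11 (45.6 and 43.3 CPM) and Ptpn1 (35.9 and 30.5 CPM) and the ligase gene Pias1 (16.0 and 13.7 CPM) were the highest. The phosphatase gene Ptpn6 had the highest ratio, 0.21 (0.03 to 0.40), and Socs6 the lowest, -0.29 (-0.48 to -0.09). Of 12 adaptor genes, 1 was past the limit, Gab1 on the lower side, at -1.66 (-2.72 to -0.71) from 41 and 12 UMIs. Irs2, an adaptor shared with the insulin receptor, was the highest adaptor at 97.4 and 105 CPM, with the highest ratio of the list, 0.11 (0.05 to 0.17). Grb2 (35 and 32.3 CPM) and Shc1 (31.4 and 31.4 CPM) followed.

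A list of 20 genes known from islets exposed to prolactin or from STAT5 studies was split. Of 19 measured genes, 5 were past the limit on the higher side (Lrrc55, Tph1, Tph2, Tnfrsf11b and Matn2) and 4 on the lower side (Bcl6, Foxm1, Pim1 and Birc5), with a median of -0.10. The shares over all genes were 5.06% and 11.5%. The study had already reported Lrrc55 and Matn2 as raised in multipara islets, and the list was chosen with earlier results of these data known. The comparison with these shares is therefore not an independent one. Foxm1 rested on 9 and 4 UMIs, and its interval of -3.21 to 0.78 included 0. Lrrc55 had 0 UMIs in virgin cells and 104 in multipara cells, so it was at least 37.5-fold higher when the virgin count is set to the floor of 3. Matn2, a matrix protein gene, was 13.3 CPM in the virgin and 35.2 CPM in the multipara library, a log2 ratio of 1.41 (1.27 to 1.54). Tnfrsf11b, which encodes the decoy receptor osteoprotegerin, was 2.72 and 6.44 CPM, a log2 ratio of 1.24 (0.95 to 1.55). Tph1, the enzyme gene of serotonin synthesis that rises in pregnant islets, had 2 and 35 UMIs.

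Other genes of that list had lower levels in the multipara library. The D cyclin gene Ccnd2 was 510 CPM in virgin cells and 407 CPM in multipara cells, which gave a log2 ratio of -0.32 (-0.35 to -0.30), and Ccnd1 was 57.9 and 53.9 CPM. Slc2a2, the glucose transporter gene of rodent beta cells, was 285 and 211 CPM, a log2 ratio of -0.43 (-0.47 to -0.40). Bcl6, a repressor gene, was 0.946 and 0.413 CPM, a log2 ratio of -1.20 (-2.05 to -0.40) from 47 and 19 UMIs, and the kinase gene Pim1 was 11.1 and 6.98 CPM, a log2 ratio of -0.67 (-0.88 to -0.47).

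**Figure D5:**
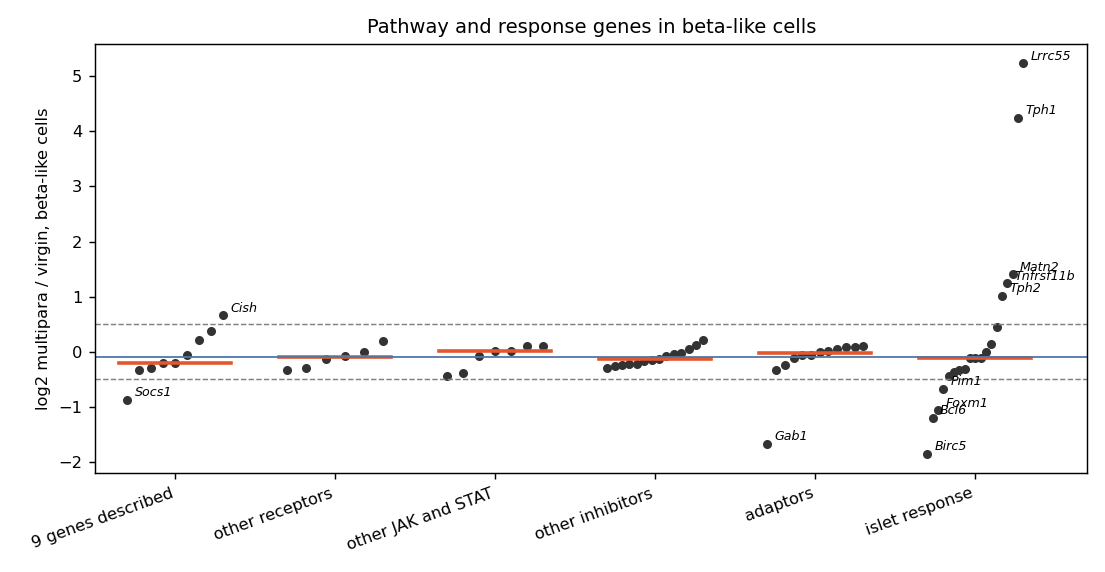
Log2 ratio of multipara over virgin in beta-like cells for the 9 genes and 5 lists of related genes, 1 point per gene with at least 10 UMIs, with Lrrc55 at its lower bound. Red bars are list medians, the blue line is the median of all genes and the dashed lines are the limits of 0.5. Genes past the limits are named, and most of them belong to the islet response list. That list was chosen with earlier results of these data known.

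Across 18 class-by-library points, the genes whose log2 levels followed Prlr most closely were Ins2 (Pearson's r = 0.94), Ins1 (0.94) and the serine protease gene Prss53 (0.93), of which the insulin genes define the beta-like gate. Ghr was followed by Tceal9 (0.95), Ppm1l (0.94) and Rcan3 (0.94), which all peaked in delta-like cells. Cish was followed by Sptlc1 (0.91), Pdzd8 (0.90) and Nod1 (0.89), and Socs2 by Galnt18 (0.93), Bmi1 (0.89) and Rab22a (0.89), with peaks in endothelial-like cells. The points share 2 libraries, and the shallow classes rest on few UMIs.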

How the data were processed

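The deposited files hold raw UMI counts per gene and barcode, produced by the authors. The submitters' processing notes name Cell Ranger 3.1.0, Seurat 3.0 and the builds GRCm38 and mm10. Reads were summed over all transcripts of a gene at 3′ ends. Gene locations came from GENCODE M21 by gene identifier (30934 of 31053 matched).

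Cells were kept with over 200 and under 6000 genes, under 60000 UMIs and under 10% mitochondrial UMIs, as in the study, and doublets called by Scrublet (scanpy 1.11.5), 61 virgin and 44 multipara, were removed. Gates asked for at least 10% of UMIs from Ins1 and Ins2, 5% from Gcg, 2% from Sst or 15% from Ppy, or for at least 3 distinct markers with 5 UMIs of a non-endocrine class. Cells that passed more than 1 gate (271 virgin and 194 multipara) or none (83 and 72) entered no class, and classes of under 30 cells were left out. The gate limits were set after the hormone and marker values were seen. The members, gene lists and markers were chosen with earlier results of these data known.

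UMIs were summed per class and given as CPM. Intervals were exact, by Poisson for levels, by Clopper-Pearson for shares and by the conditional binomial for log2 ratios (scipy 1.17.1, python 3.11.15). With 1 library per group there was no test. The calls and intervals were tested on simulated data, drawn with counting error only, as the intervals assume. That check could not test how the intervals fare with spread between cells or animals. A ratio was called from 0.5 in size on the log2 scale, in genes with at least 10 UMIs. Named were all 9 members, the 3 highest genes of each list by level, the highest and lowest ratio of each list among genes of at least 50 UMIs, and for Prlr, Ghr, Cish and Socs2 the 3 genes with the highest correlation of log2(CPM + 5) among genes reaching 20 CPM. Tph1, Tph2, Tnfrsf11b, Matn2, Foxm1, Pim1 and Birc5 were also named, after their values were seen. A gene that the rule names is not reported here.

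Alternatives were no cell filter, doublets kept, stricter gates, Leiden clusters in place of gates, thinning, equal weight per cell, and TMM (edgeR) or median-of-ratios (DESeq2) scaling. Thinning to 10000 UMIs and leaving out cells under 10000 UMIs were added after the data were seen.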

Additional observations from a re-analysis of the deposited data

Results flagged for a closer look

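The 4 inhibitor genes had ratios of opposite sign in different classes, each with an interval that left out 0. The share of all genes with such a pattern was not counted, and the differences between classes were not tested. Of all genes, 24.9% in T cell-like and 16.3% in B cell-like cells were past the limit on the higher side. Cish had log2 ratios of 0.67 in beta-like and 1.62 in T cell-like cells (11 and 13 UMIs), against -0.81 in alpha-like and -0.73 in delta-like cells, of which the delta-like value was 0.069 in cells of at least 10000 UMIs. Socs1 had 0.72 in endothelial-like and 1.39 in B cell-like cells, against -0.86 in beta-like and -2.62 in delta-like cells (15 and 2 UMIs). Socs2 had 0.21 in beta-like cells and -1.14 in delta-like cells. Socs3 had 0.41 in endothelial-like and 1.19 in B cell-like cells, against -0.20 in beta-like and -0.24 in alpha-like cells. The B cell-like values rest on 41 multipara cells, and the Ins2 level of that gate was 1.79 higher on the log2 scale in the multipara library. The gate was led by immunoglobulin genes and Jchain. Of its cells, 143 of 186 (virgin) and 37 of 41 (multipara) fell in the cluster named for B cells.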

How the results depend on the processing

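No paired analysis was possible because there was 1 library per group, and no replicate could be left out. In beta-like cells the direction of Prlr, Ghr, Jak2, Stat5b, Cish, Socs1, Socs2 and Socs3 held under every alternative that gave a value. Stat5a ranged from -0.52 to 0.22, and Socs1 gave no value when thinned to 2000 UMIs. Cish stayed past the limit under all alternatives, between 0.64 and 0.81. Thinning to 2000 UMIs gave log2 ratios of 0.42 for Prlr, -0.23 for Ghr, -1.34 for Jak2 (36 and 12 cells with a UMI), -0.52 for Stat5a, -0.56 for Stat5b and 0.52 for Socs2. Thinning to 10000 UMIs gave 0.41 for Prlr and -0.20 for Ghr. Equal weight per cell gave -0.079 for Jak2 and 0.38 for Socs2. TMM scaling gave 0.47 for Prlr, -0.20 for Ghr and -0.11 for Socs3, and median-of-ratios size factors gave 0.47, -0.20 and -0.11, with 0.30 for Socs2. The cause of these shifts was not tested, other than that both scalings set the all-gene median near 0. In other classes, among ratios of at least 0.5 in size, the alternatives changed a sign 8 times. Sign changes of smaller ratios were not counted. Thinning to 2000 UMIs gave 0.048 for Cish and 0.22 for Socs1 in alpha-like cells, 0.87 for Stat5b in pericyte-like and 0.10 for Socs1 in T cell-like cells. In delta-like cells Cish was 0.26 after thinning to 10000 UMIs and 0.069 without cells under 10000 UMIs. Clusters in place of gates gave -0.042 for Cish in macrophage-like and -0.35 for Socs2 in T cell-like cells. The share of all genes past the limit in beta-like cells was 16.6% with at least 10 UMIs, 9.34% with at least 50 and 20.3% with at least 1. With a pseudocount of 1 CPM, Trpm5 followed Prlr and Sorbs2 followed Ghr most closely. Depth limits every member other than Prlr in single cells, and Jak2, Stat5a and Socs1 also in sums.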
